A study of Mus musculus with 6 samples.

Results

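The mRNA of all 9 nucleotide synthesis enzymes examined rose in small intestinal organoids treated with MMK-1. The 9 genes are Rrm1, Rrm2, Tyms and Tk1 of deoxynucleotide production, Cad, Dhodh and Umps of pyrimidine synthesis, and Ppat and Impdh2 of purine synthesis. They were chosen by name, with earlier results of these data known. Taken were the rows of the deposited table that carry these symbols, and each was found once among 21397 genes. The FPKM ratio of MMK-1 to Control, FPKM being fragments scaled to gene length and library total, ran from 1.33 for Impdh2 to 2.11 for Ppat. In each of the 9 genes every MMK-1 library lay above every Control library, as in 50.5% of all genes tested, and 48.5% of those genes were called higher. The fragments behind a value ran from 518 for Dhodh in Control replicate 1 to 7361 for Impdh2 in MMK-1 replicate 3.

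Organoids are crypt cells grown in culture into closed epithelial structures with dividing and differentiated cells. Those used here came from small intestine of Fpr2f/f mice, which carry a floxed Fpr2 allele and, as far as the labels say, no Cre, so that both groups shared this genotype. The MMK-1 group received MMK-1, a synthetic peptide agonist of the receptor FPR2, at 1 µM for 5 days. The Control group received the vehicle alone, and both groups had 0.1% DMSO. The characteristics field of the MMK-1 samples gives 1 mM. The protocol text and the methods of the study give 1 µM, which is taken as the dose here. Each group had 3 libraries, and each sample is stated to hold organoids of 3 mice. The mice had a C57BL/6J background, and the methods of the study give an age of 8 to 12 weeks for its mice in general. The sex of those used for the organoids is not given in the sources used here. A figure legend of the study calls the organoids ileal and the labels call them small intestinal. The study states in general that its data come from independent experiments, but nothing says for these libraries whether the 3 samples of a group were separate cultures, so p-values measure only the spread between these samples. The comparison asks which genes respond to activation of FPR2 in the epithelium.

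Dividing cells need ribonucleotides for RNA and deoxynucleotides for DNA. Purines and pyrimidines are built de novo from amino acids, carbon dioxide and phosphoribosyl pyrophosphate, or recovered from free bases and nucleosides by salvage. Ribonucleotide reductase then converts ribonucleoside diphosphates to deoxyribonucleotides, and thymidylate is made either from deoxyuridylate or from thymidine. In the small intestine the dividing cells are the stem and transit-amplifying cells of the crypt, while the absorptive enterocytes of the villus no longer divide. Several of these enzymes are targets of drugs that block dividing cells, among them Tyms for fluorouracil metabolites, Dhodh for leflunomide and Impdh2 for mycophenolate.

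The libraries held between 35512739 and 37537463 fragments, and limma-trend was run on log2(FPKM + 1) for the 10551 genes whose mean FPKM reached 1. MMK-1 replicate 3 stood apart from the other MMK-1 libraries. Per degree of freedom, the chi-square between it and MMK-1 replicates 1 and 2 was 45.2 and 38.6, against 2.90 to 5.59 between the other libraries of 1 group. Of all genes tested, 5118 (48.5%) were higher in MMK-1 and 2606 (24.7%) lower, the call being an adjusted p (Benjamini-Hochberg) of 0.05 or less. These counts were 4104 and 3495 after scaling libraries to their upper quartile and 3682 and 3916 after median-of-ratios scaling. Over those genes the log2 fold change had a median of 0.13 with FPKM as deposited, 0.04 with the former and -0.0034 with the latter scaling. The organoids carried epithelial markers. Leukocyte markers summed to at most 6.74 FPKM in any library over the 7 in the table, and markers of fibroblasts and endothelium to at most 6.41 over 9, of which 1 was listed at 0 in every library.

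At the adjusted p of at most 0.05 used for calls, 9 of the 9 enzymes were higher in MMK-1, against 48.5% of all genes tested. The median log2 fold change of the 9 was 0.65. It was 0.55 with upper-quartile scaling and 0.51 with median-of-ratios scaling, and 9 of 9 passed under both. In bulk RNA, a change in the number of cells of a type and a change in RNA per cell cannot be told apart. A log2 fold change at least as large as that of the lowest of the 9 was seen in 25.3% of all genes tested, and one at least as large as their median in 11.6%. All 9 showed no overlap of the groups, with MMK-1 above, as did 50.5% of all genes tested. An exact two-sided permutation test over the 6 libraries gave p = 0.1 for each, the smallest value that 3 against 3 allows. At a fold change of at least 2 with p of at most 0.05, the thresholds in the methods of the study, 0 of the 9 passed by limma on log2(FPKM + 1), against 3.39% of all genes. The added 1 FPKM lowers fold changes of genes at few FPKM, and Ppat, with an FPKM ratio of 2.11, was the 1 enzyme that passed with a pseudocount of 0.1, with TPM and with limma-voom on fragment numbers.

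**Figure D1:**
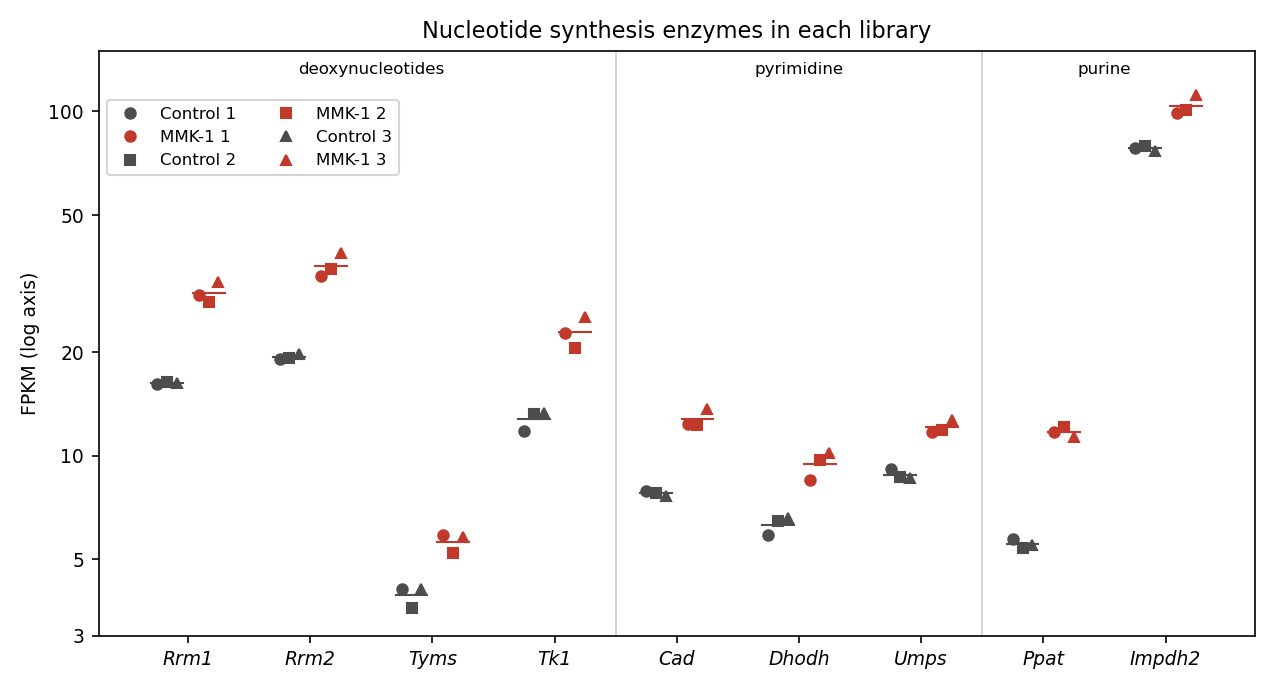
FPKM of each of the 9 enzymes (log axis) in the 3 Control libraries (grey) and the 3 MMK-1 libraries (red), with a symbol for each replicate number and short lines at the group means. The red points lie above the grey points for every gene, from Tyms at 3.60 to 5.87 FPKM up to Impdh2 at 76.9 to 112 FPKM.

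The promoter windows below are those of the 5 enzymes with a match to the letters bound by E2F, shown so that the matches can be read in their context. E2F factors regulate many genes of DNA synthesis at the start of S phase. The windows run from 250 bases before to 50 after the RefSeq transcript start on GRCm38.p6, 5′ to 3′ on the strand of the gene. Of the 9 enzymes, 8 had a window, and Dhodh had none. Capitals mark TTCCCGC on either strand. Close spellings of these letters were searched and marked as well, of which TTGGCGC was the first. The others that were searched in the same way were TTCGCGC and also, again on both strands, TTGCCGC. Rrm1 is from chr7:102441445-102441744 (plus strand), Rrm2 from chr12:24708004-24708303 (plus), Cad from chr5:31054530-31054829 (plus), Ppat from chr5:76951529-76951828 (minus) and Impdh2 from chr9:108560186-108560485 (plus).
Rrm1: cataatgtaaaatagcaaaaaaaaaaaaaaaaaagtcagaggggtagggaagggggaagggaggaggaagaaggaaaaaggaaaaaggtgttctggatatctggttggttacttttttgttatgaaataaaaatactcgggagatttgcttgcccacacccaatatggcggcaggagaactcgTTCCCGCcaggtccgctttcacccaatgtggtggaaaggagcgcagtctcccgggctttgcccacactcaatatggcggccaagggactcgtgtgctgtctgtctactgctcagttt
Rrm2: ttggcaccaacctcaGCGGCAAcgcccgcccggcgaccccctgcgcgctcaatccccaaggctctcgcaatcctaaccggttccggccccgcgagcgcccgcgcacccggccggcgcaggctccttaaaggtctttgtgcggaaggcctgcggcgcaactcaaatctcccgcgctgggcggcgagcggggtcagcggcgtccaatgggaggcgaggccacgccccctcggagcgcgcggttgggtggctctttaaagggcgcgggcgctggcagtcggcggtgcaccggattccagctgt
Cad: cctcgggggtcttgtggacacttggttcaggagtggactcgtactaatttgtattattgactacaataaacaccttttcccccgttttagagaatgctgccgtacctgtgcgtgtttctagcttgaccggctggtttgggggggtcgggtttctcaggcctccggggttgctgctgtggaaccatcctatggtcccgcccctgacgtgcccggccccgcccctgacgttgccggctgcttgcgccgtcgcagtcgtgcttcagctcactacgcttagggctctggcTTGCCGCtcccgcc
Ppat: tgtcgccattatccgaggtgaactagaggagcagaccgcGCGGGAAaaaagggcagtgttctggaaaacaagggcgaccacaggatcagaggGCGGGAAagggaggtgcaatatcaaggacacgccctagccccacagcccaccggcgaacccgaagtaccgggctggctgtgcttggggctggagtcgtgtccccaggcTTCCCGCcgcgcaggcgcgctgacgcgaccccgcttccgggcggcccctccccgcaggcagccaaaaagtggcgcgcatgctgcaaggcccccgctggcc
Impdh2: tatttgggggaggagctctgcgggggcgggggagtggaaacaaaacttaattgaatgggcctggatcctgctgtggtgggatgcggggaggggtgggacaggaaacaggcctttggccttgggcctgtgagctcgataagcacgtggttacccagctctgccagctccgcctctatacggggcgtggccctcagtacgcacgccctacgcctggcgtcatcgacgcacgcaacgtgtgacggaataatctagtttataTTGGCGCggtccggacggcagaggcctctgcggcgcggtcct

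The E2F letters were found in 5 of the 8 windows, with 3 matches in Ppat and 1 each in Rrm1, Rrm2, Cad and Impdh2. They occur in 9.57% of all 32851 RefSeq windows of this length and in 16.95% of the 10891 windows of genes tested. They were not found in the windows of Tyms, Tk1 and Umps, which says only that these letters are not there. In Rrm1 the match starts 67 bases before the transcript start. It lies between 2 copies of CCAAT, the letters bound by NF-Y, at 91 and 45 bases before it. The matches of Ppat start 211, 158 and 50 bases before the transcript start, and the middle one overlaps a GGGCGG. The match of Impdh2 starts 8 bases after the transcript start and overlaps CCAAT read on the other strand.

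Of the other letters searched on both strands, GGGCGG (GC box) was in 7 of the 8 windows, against 63.0% of those of genes tested, and CCAAT in 3, against 38.3%. CACGTG (E-box), the letters bound by Myc and related factors, was in 2, Tyms and Impdh2, against 10.6%. TTTGAA or TTCGAA, the letters of the cell cycle homology region, was in 1, Umps, against 14.3%. A match describes the letters of the window and not the binding of a factor.

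Rrm1 and Rrm2 encode the large and the small subunit of ribonucleotide reductase, and Rrm2 protein is limiting for the enzyme in S phase. Rrm1 (chromosome 7, 102441695 to 102469771, plus strand, GRCm38) was at 16.2, 16.4 and 16.3 FPKM in Control replicates 1 to 3 and at 29.2, 27.9 and 31.9 in MMK-1 replicates 1 to 3. The Control libraries were close together, with a coefficient of variation of 0.512%, and the lowest MMK-1 library was far above the highest of them. The log2 fold change was 0.82 (SE 0.0534, adjusted p = 1.86e-06), an FPKM ratio of 1.82. Rrm2 (chromosome 12, 24708241 to 24714146, plus strand) was at 19.1, 19.2 and 19.7 FPKM in Control and 33.2, 34.9 and 38.9 in MMK-1. MMK-1 replicate 3 was the highest library for both genes. The log2 fold change of Rrm2 was 0.85 (SE 0.0588, adjusted p = 2.84e-06).

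No difference between the changes of both subunits was detectable. The Rrm2 to Rrm1 ratio within a library was 1.17 to 1.21 in Control and 1.14 to 1.25 in MMK-1, and the groups overlapped. The log2 ratio differed by 0.02 (SE 0.0437, exact permutation p = 0.7). Rrm2b, the alternative small subunit used outside S phase and in the response to p53, was at 4.195, 3.36 and 3.78 FPKM in Control and 3.84, 4.88 and 4.88 in MMK-1, with overlapping groups. Its log2 fold change was 0.21 (SE 0.0932, adjusted p = 0.0696) and did not pass. It passed with limma-voom (0.26), without Control replicate 1 (0.27) and without MMK-1 replicate 1 (0.30), and was 0.01 with GC correction. The Rrm2 to Rrm2b ratio moved from 4.55 to 5.70 in Control to 7.15 to 8.64 in MMK-1, without overlap.

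Thymidylate has 2 sources, and the enzymes of both were higher. Tk1, the cytosolic thymidine kinase of dividing cells (chromosome 11, 117815526 to 117826092, minus strand), was at 11.8, 13.2 and 13.3 FPKM in Control and 22.6, 20.6 and 25.3 in MMK-1. The lowest MMK-1 library was well above the highest Control library. The log2 fold change was 0.79 (SE 0.0767, adjusted p = 2.21e-05). Tk2, the mitochondrial thymidine kinase, was at 1.97, 1.63 and 1.43 FPKM in Control and 1.56, 1.23 and 1.49 in MMK-1, and its log2 fold change of -0.14 did not pass (adjusted p = 0.175), but did with median-of-ratios scaling (-0.24). The Tk1 to Tk2 ratio was 5.996 to 9.28 in Control and 14.6 to 17.0 in MMK-1, the second largest shift of the 9 pairs, at 1.07 in log2 (SE 0.199).

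Tyms, thymidylate synthase (chromosome 5, 30058202 to 30073617, minus strand), was the lowest of the 9 in both groups. It was at 4.10, 3.60 and 4.10 FPKM in Control and 5.87, 5.20 and 5.82 in MMK-1. The groups did not overlap, and the log2 fold change was 0.43 (SE 0.0648, adjusted p = 3.50e-04).

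Cad, Dhodh and Umps carry pyrimidine synthesis from glutamine and bicarbonate to UMP. Cad is a multifunctional protein that catalyses the first steps (chromosome 5, 31054780 to 31078479, plus strand). It was at 7.91, 7.80 and 7.61 FPKM in Control and 12.4, 12.3 and 13.7 in MMK-1, with tight groups far apart. The log2 fold change was 0.65 (SE 0.0522, adjusted p = 6.85e-06), the median of the 9 enzymes. Dhodh, the mitochondrial dihydroorotate dehydrogenase (chromosome 8, 109591343 to 109608673, minus strand), was at 5.90, 6.46 and 6.57 FPKM in Control and 8.48, 9.74 and 10.2 in MMK-1. In each group replicate 1 was the lowest library, and the numbers do not pair the samples. Its log2 fold change was 0.52 (SE 0.0707, adjusted p = 1.85e-04). Umps, which makes UMP from orotate (chromosome 16, 33954782 to 33967038, minus strand), was at 9.13, 8.68 and 8.62 FPKM in Control and 11.7, 11.9 and 12.7 in MMK-1. The groups were apart by less than for Cad, and the log2 fold change was 0.42 (SE 0.0483, adjusted p = 6.83e-05).

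The change of Umps was smaller than that of Cad. The Umps to Cad ratio was 1.11 to 1.154 in Control and 0.925 to 0.964 in MMK-1, so that Umps was above Cad in each Control library and below it in each MMK-1 library. The log2 ratio differed by -0.26 (SE 0.0232, exact permutation p = 0.1, adjusted p = 0.129 over the 9 pairs). For Dhodh to Cad the groups overlapped, with 0.746 to 0.864 in Control and 0.685 to 0.792 in MMK-1 (exact permutation p = 0.3).

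Ppat catalyses the first committed step of purine synthesis and had the largest change of the 9. Ppat (chromosome 5, 76913249 to 76951578, minus strand) was at 5.72, 5.39 and 5.49 FPKM in Control and 11.7, 12.1 and 11.3 in MMK-1. MMK-1 replicate 3 was the lowest of its group here, unlike for most of the others. The log2 fold change was 0.96 (SE 0.0471, adjusted p = 3.65e-07), and 3.96% of all genes tested had a value at least as large. Paics, of a later step of the same pathway, lies head to head with Ppat, and their RefSeq starts are 276 bases apart on opposite strands. Paics was at 15.6, 15.8 and 16.0 FPKM in Control and 28.5, 27.04 and 28.8 in MMK-1, a log2 fold change of 0.79 (SE 0.0425, adjusted p = 6.18e-07). The gene models of Ppat and Paics share 272 of the 4421 exonic bases of Ppat in GENCODE, and the sources used here do not say whether counting used strand.

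Impdh2, which commits inosine monophosphate to guanine nucleotides (chromosome 9, 108560286 to 108565584, plus strand), was the highest of the 9 in level. Its change was close to those of Umps and Tyms, and the smallest was that of Impdh2 or, with GC correction and without some single libraries, that of Tyms. It was at 78.3, 79.4 and 76.9 FPKM in Control and 98.7, 101 and 112 in MMK-1. The groups did not overlap, and the log2 fold change was 0.40 (SE 0.0513, adjusted p = 1.21e-04). Its paralog Impdh1, with the same reaction, was at 8.80, 9.56 and 8.80 FPKM in Control and 17.8, 17.1 and 20.5 in MMK-1. That is a log2 fold change of 0.95 (SE 0.0687, adjusted p = 3.67e-06). The Impdh2 to Impdh1 ratio was 8.31 to 8.90 in the Control libraries and 5.46 to 5.91 in the MMK-1 libraries, a log2 difference of -0.62 (SE 0.0458).

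**Figure D2:**
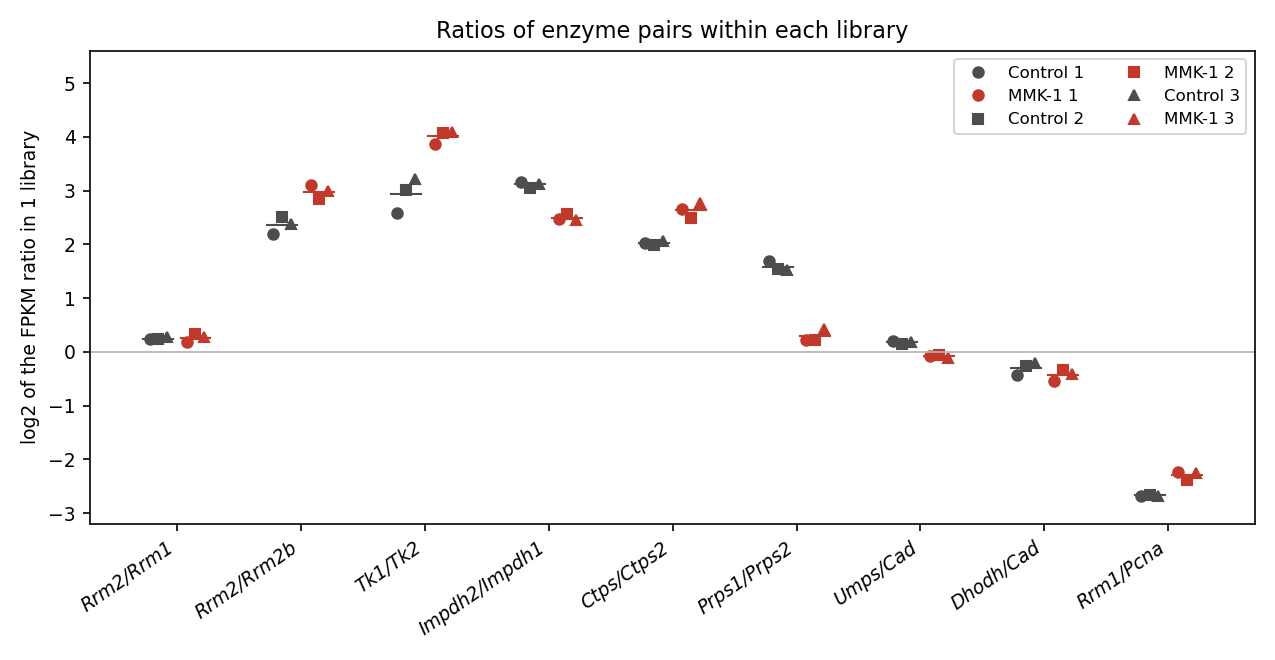
Log2 of the FPKM ratio of 9 gene pairs within each library, Control in grey and MMK-1 in red, with a symbol for each replicate number and short lines at the group means. The groups overlap for Rrm2/Rrm1 and Dhodh/Cad and lie apart for the other 7 pairs, with MMK-1 lower for Impdh2/Impdh1, Prps1/Prps2 and Umps/Cad.

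In all, 9 pairs of subunits, paralogs or linked steps were compared, and in 7 the groups did not overlap, each with exact permutation p = 0.1 and an adjusted p of 0.129. With 3 libraries a group this permutation test cannot reach a p below 0.1. A ratio within a library does not depend on the scaling between libraries. The largest shift was between the phosphoribosyl pyrophosphate synthetases that supply Ppat with its substrate. Prps1 was at 14.4, 13.5 and 13.8 FPKM in Control and 9.78, 9.50 and 9.99 in MMK-1, while Prps2 was at 4.49, 4.66 and 4.78 in Control and 8.36, 8.19 and 7.46 in MMK-1. Their ratio moved from 2.89 to 3.21 in Control to 1.16 to 1.34 in MMK-1, a log2 difference of -1.30 (SE 0.0833). The CTP synthetase pair Ctps and Ctps2 moved from 3.97 to 4.19 in Control to 5.59 to 6.78 in MMK-1. The ratio of Rrm1 to Pcna, the sliding clamp of DNA replication, was 0.157 to 0.158 in Control and 0.191 to 0.212 in MMK-1.

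Among the 9 enzymes the order of FPKM levels in Control was Impdh2, Rrm2, Rrm1, Tk1, Umps, Cad, Dhodh, Ppat and Tyms, and no neighbours in this order had overlapping ranges. In MMK-1 the order was Impdh2, Rrm2, Rrm1, Tk1, Cad, Umps, Ppat, Dhodh and Tyms. There the ranges of Cad and Umps overlapped, as did those of Umps and Ppat. Ppat and Cad each moved up by 1 place. Summed over genes, the 4 enzymes of deoxynucleotide production went from 51.2 to 53.4 FPKM in Control to 88.6 to 102 in MMK-1. The 3 of pyrimidine synthesis went from 22.8 to 22.9 to 32.6 to 36.5, and the 2 of purine synthesis, mostly Impdh2, from 82.4 to 84.8 to 110 to 123.

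The rest of the pathways moved less evenly. Of 31 other genes of nucleotide synthesis and salvage, 30 were tested, of which 18 were higher and 4 lower at adjusted p of at most 0.05 and 8 did not pass, with a median log2 fold change of 0.22. With median-of-ratios scaling the counts were 14 higher and 7 lower. In purine synthesis 8 of 10 tested were higher, led by Impdh1, Paics and Prps2 (log2 fold change 0.67, adjusted p = 7.41e-06). Prps1 was the only one lower, at -0.47 (adjusted p = 1.98e-05), and Adsl, with -0.03, did not pass. Adsl was lower with upper-quartile (-0.14, adjusted p = 0.00809) and median-of-ratios scaling (-0.19, adjusted p = 0.00135), Adss was no longer higher with the latter (0.07, adjusted p = 0.160), and Gmps did not pass with GC correction (0.23). The gene Adssl1 lay below the filter.

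In the later pyrimidine steps 3 of 5 were higher. Ctps, which makes CTP from UTP, was at 6.75, 6.58 and 6.65 FPKM in Control and 12.9, 12.9 and 14.1 in MMK-1, a log2 fold change of 0.90 (SE 0.0498, adjusted p = 7.44e-07). Ctps2 and the nucleoside diphosphate kinase Nme1 had log2 fold changes of 0.25 and 0.20. Nme1 no longer passed with upper-quartile or median-of-ratios scaling. Cmpk1 and Nme2 did not pass, though Nme2 did with GC correction (0.14) and TPM (0.13), and Cmpk1 was split by MMK-1 replicate 3, with 141 and 143 FPKM in MMK-1 replicates 1 and 2 and 101 in replicate 3 against 106 to 112 in Control. Without that library its log2 fold change was 0.37 (adjusted p = 1.18e-05).

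Of the other 9 genes of deoxynucleotide and thymidylate steps, 6 were higher and 1 lower. With upper-quartile scaling 4 were higher and 1 lower, and with median-of-ratios scaling 4 and 2, Dctd and Samhd1 losing their calls under both. Samhd1, at 0.14, also lost its call without the filter, with the replicate block and without any single library but MMK-1 replicate 1, with values of 0.10 to 0.16. Dck, deoxycytidine kinase, was at 5.81, 5.66 and 4.83 FPKM in Control and 10.98, 10.3 and 10.3 in MMK-1 (log2 fold change 0.84, adjusted p = 6.14e-06). Dut, which turns dUTP into the substrate of thymidylate synthase, was at 7.504, 8.55 and 7.82 FPKM in Control and 15.3, 14.0 and 14.6 in MMK-1 (0.81, adjusted p = 3.20e-06). Dctpp1, which hydrolyses dCTP and modified forms of it, had a log2 fold change of 0.41. The lower one was the mitochondrial deoxyguanosine kinase Dguok, at -0.24 (adjusted p = 0.00768). In salvage 1 of 6 was higher, the uridine-cytidine kinase Uck2, at 0.70 (adjusted p = 4.36e-06). The adenine phosphoribosyltransferase Aprt, at -0.34 (adjusted p = 4.16e-04), and the adenosine kinase Adk, at -0.22 (adjusted p = 0.00808), were lower. Hprt, which salvages hypoxanthine and guanine, did not pass at -0.09, but was lower with upper-quartile (-0.20, adjusted p = 0.00302) and median-of-ratios scaling (-0.25, adjusted p = 7.80e-04), with GC correction (-0.26) and without MMK-1 replicate 3 (-0.11).

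**Figure D3:**
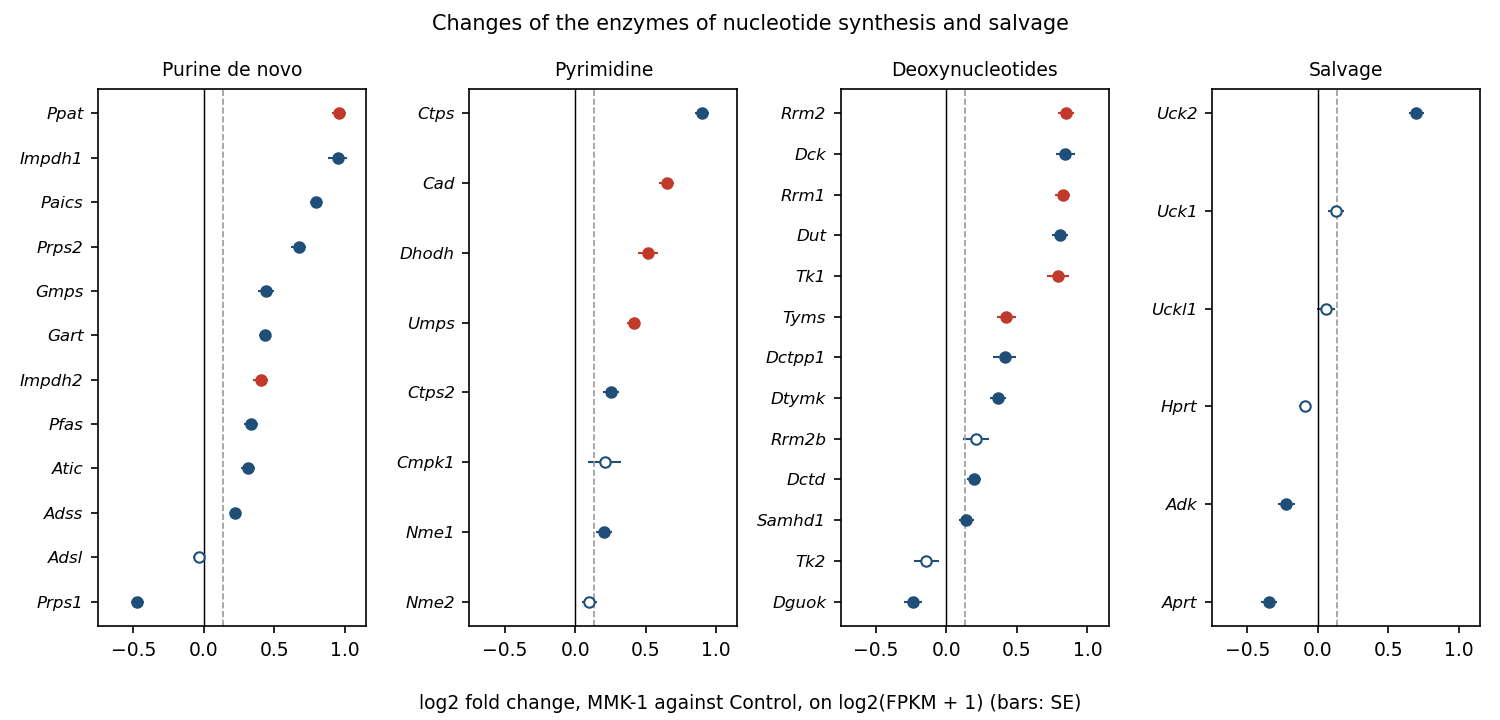
Log2 fold change of MMK-1 against Control with its SE for the 9 enzymes (red) and the 30 other tested genes of nucleotide synthesis and salvage (blue), by role. Filled points have an adjusted p of at most 0.05, and the dashed line is the median of all genes tested, 0.13. All red points lie to the right of it, while Prps1, Dguok, Aprt and Adk are filled and left of 0.

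Lists of neighbouring processes are given by their counts and medians. Of 18 genes of DNA replication licensing and elongation 17 were higher, with a median log2 fold change of 0.83, and of 11 serine and folate one-carbon enzymes 10 were higher and 1 lower, with a median of 0.71. For the 9 enzymes the median was 0.65. Of 6 tested genes of purine and pyrimidine breakdown and nucleoside uptake, 6 were lower, with a median of -0.96. Ada, which is in this list and in the enterocyte marker list, lay below the filter with Nt5e and Slc28a2. These 3 were not tested, and Ada (a mean of 0.281 FPKM in Control and 1.09 in MMK-1) and Nt5e (0.0447 and 0.178) had every MMK-1 library above every Control library. Slc28a1, at 4.42 and 0.212 FPKM, was among the 6 only through its level in Control.

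Markers of cell types changed as well, in directions that differed between the types. All 12 proliferation markers were higher, their summed FPKM going from 162 to 166 in Control to 310 to 319 in MMK-1. All 10 stem cell markers were higher, their sum going from 71.2 to 72.6 in Control to 366 to 380 in MMK-1. Log2 fold changes of the stem cell markers were uneven, from 0.45 to 5.02 with a median of 1.38. All 9 Paneth markers tested were higher. Of 17 enterocyte markers tested 15 were lower and 2 higher (1 higher with upper-quartile or median-of-ratios scaling), and their sum over 18 genes went from 11311 to 11403 FPKM in Control to 6282 to 6718 in MMK-1. Goblet markers were higher in 7 of 9 and lower in 2, and the 7 became 6 with upper-quartile and 4 with median-of-ratios scaling. Enteroendocrine markers were higher in 8 of 11, and none was lower, or 1 with median-of-ratios scaling. The 1 tuft marker tested was higher, a call lost with either of these scalings. The 2 leukocyte markers tested were lower, and the 1 tested marker of fibroblasts and endothelium was lower. The part of the cell types in the change of the 9 enzymes was not tested.

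The library that stood apart carried the highest level of 7 of the 9 enzymes, as it did for 60.7% of all genes tested. It was above the mean of the other MMK-1 libraries by 5.19% for Tyms up to 17.3% for Tk1, and below it for Ppat. Without it, 9 of 9 enzymes still passed, against 48.9% of all genes then tested that were higher. The log2 fold changes were then 0.77 for Rrm1, 0.79 for Rrm2, 0.40 for Tyms, 0.72 for Tk1, 0.60 for Cad, 0.47 for Dhodh, 0.38 for Umps, 0.98 for Ppat and 0.35 for Impdh2. Across the 14 alternatives tried, the lowest log2 fold change of any of the 9 was 0.25, for Impdh2 with median-of-ratios scaling.

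**Figure D4:**
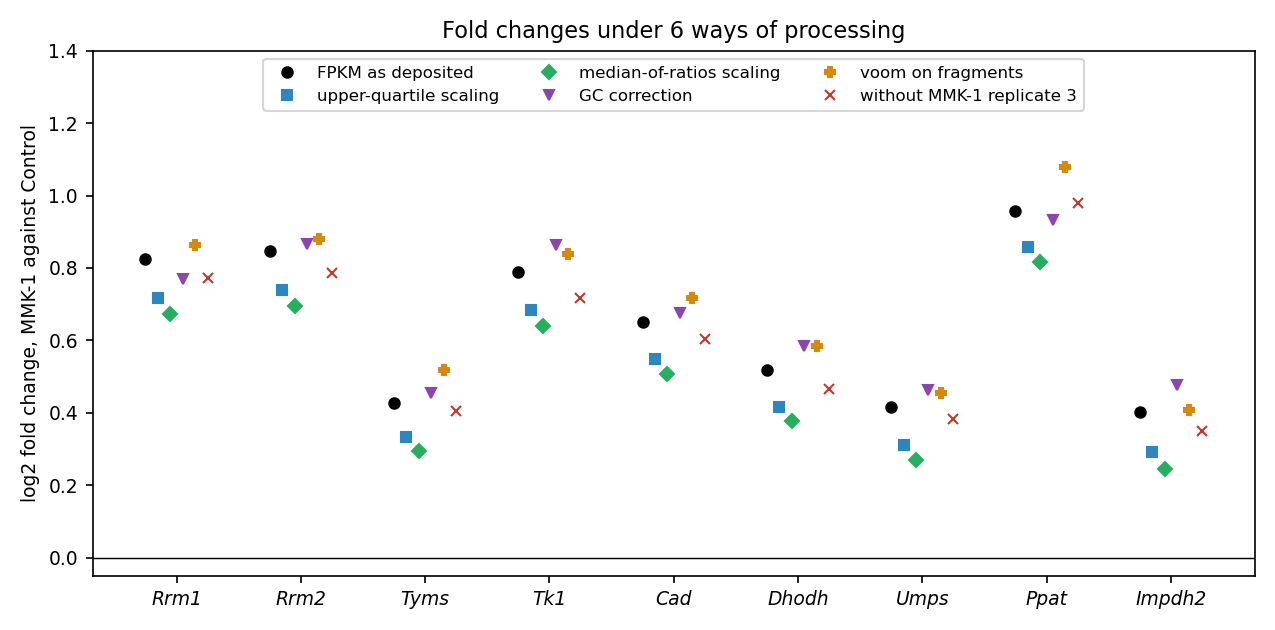
Log2 fold change of MMK-1 against Control for each of the 9 enzymes under 6 ways of processing, marked by symbol. All points lie above 0, with median-of-ratios scaling the lowest for each gene, from 0.25 for Impdh2 to 0.82 for Ppat.

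Gene models limit some values. Besides Ppat and Paics, Tk1 shares 83 of 5198 exonic bases with Afmid on the other strand, whose RefSeq start is 95 bases away. Afmid was at a mean of 1.62 FPKM in Control and 1.42 in MMK-1 (log2 fold change -0.12, adjusted p = 0.200). Umps shares 213 of 3484 exonic bases with an antisense gene, and Impdh2 shares 48 of 3077 with Ndufaf3. The annotation also holds pseudogenes named for Tyms and Impdh2, and reads shared with such copies cannot be placed with certainty.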

How the data were processed

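Bulk RNA was sequenced from 3 Control and 3 MMK-1 samples of mouse small intestinal organoids, as 150-base read pairs. The authors deposited FPKM values. The submitters' processing notes list mm10, HISAT2, HTSeq, R 3.2.0 and DESeq2, with no role given. The values were whole multiples of 1 fragment for 100% of genes above 0 (tolerance 0.1), from which fragments per gene and library totals of 35512739 to 37537463 were computed. Counting error is the only error such numbers cover. Groups came from the titles. The 9 enzymes were fitted within the whole table with limma 3.58.1 (trend, R 4.3.3) on log2(FPKM + 1), over the 10551 genes whose mean FPKM reached 1, with no block, and adjusted by Benjamini and Hochberg over all of them. Fold changes on this scale understate those of low genes. Pair ratios and single genes were compared by exact permutation over libraries (scipy 1.17.1). The scripts were tested on simulated data.

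The 9 enzymes and the gene lists were chosen with earlier results of these data known. Named were the 9, their paralogs, the genes of the 9 pairs, and the 3 largest changes in each direction in each list of other pathway genes at adjusted p of at most 0.05. Adsl, Adss, Adssl1, Gmps, Cmpk1, Nme2, Samhd1, Dctd, Hprt, Ada, Nt5e, Slc28a1, Slc28a2 and genes overlapping the 9 fall outside this rule and were named after their values were seen. A further gene of the lists, with its pair, is not reported here. Alternatives covered scaling, filter, pseudocount, TPM, limma-voom on fragments, GC content (known for 96.4% of genes tested, span 0.3), a replicate block and leaving out each library. Deviations of same-numbered samples correlated at 0.025, -0.040 and 0.028, so the numbers were not taken as pairs. Coordinates are from GENCODE vM21 (GRCm38), promoter windows from RefSeq (GRCm38.p6). The labels give no batch.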

Additional observations from a re-analysis of the deposited data

How the results depend on the processing

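Each of the 9 enzymes kept its direction and its adjusted p of at most 0.05 under each of 14 alternatives (126 values in all), and the differences of the pair ratios moved by no more than the spread between libraries in 63 alternative values. Of these, 1 turned its sign, Rrm2 to Rrm1, from 0.018 to -0.012 without MMK-1 replicate 2. The median log2 fold change of the 9 fell to 0.55 with upper-quartile and 0.51 with median-of-ratios scaling. At a fold change of at least 2 the count of the 9 was 1 with limma-voom, with a pseudocount of 0.1 and with TPM, against 0. The count of all genes higher at that fold, 358, was 726 with limma-voom, 676 with a pseudocount of 0.1, 558 with TPM and 225 with median-of-ratios scaling. All genes higher and lower at adjusted p of at most 0.05, 5118 and 2606, were 4104 and 3495 with upper-quartile and 3682 and 3916 with median-of-ratios scaling. Under the latter the other pathway genes lower were 7 in place of 4, and Samhd1, a dNTP hydrolase, moved from 0.14 to -0.00835. Of the other alternative values of those genes, 388 stayed on their side of the threshold, 14 lost it and 17 gained it. The cause was not tested beyond the construction of each alternative. With the replicate block 9 of 9 enzymes were higher at adjusted p of at most 0.05, as were 5024 of the 10551 genes tested. Of the other pathway genes, 17 were then higher and 4 lower. With 3 libraries a group, exact tests of single genes cannot go below 0.1, and TPM, FPKM and fragments all rest on the same deposited values.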
